A study of Mus musculus with 4 samples.

Results

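The genes of the proteasome were examined in cells that received 1-nitropyrene, a nitrated polycyclic hydrocarbon of diesel exhaust. The 47 genes followed here were listed by name: the subunits of the proteolytic core (the 20S particle, genes Psma and Psmb), of the regulatory cap (the 19S particle, genes Psmc, Psmd and Adrm1) and of the other activators (Psme), the assembly chaperones (Psmg1 to Psmg3, Psmd5, Psmd9 and Psmd10), the segregase Vcp and the transcription factor Nfe2l1. All 47 had a row among the 53465 gene identifiers of the count table. Polyadenylated RNA of MLE-12 cells was sequenced; the labels give this as 1 immortalized lung epithelial line of the mouse, used as a model of alveolar type 2 cells. Of the 4 libraries, 2 were from cells cultured for 12 h in 5 µM 1-nitropyrene (replicates 2 and 3) and 2 from control cells without it (replicates 1 and 2). No genetic change was given for either group. The labels did not state separate cultures, so the p-values measure only the spread between these libraries, which may be technical.

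The proteasome degrades proteins tagged with ubiquitin. Its core is a barrel of alpha rings, which gate the entry, and beta rings, which hold the catalytic sites. The cap binds ubiquitin chains, removes them, and unfolds the substrate with a ring of ATPases. Nfe2l1 encodes NRF1, a transcription factor held in the endoplasmic reticulum membrane and normally degraded by the proteasome. NRF1 is extracted by the ATPase VCP and deglycosylated by NGLY1. When proteasome activity falls short, it is cleaved by the protease DDI2. It then binds antioxidant response elements with small MAF proteins and activates proteasome subunit genes.

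The libraries held 8797502 and 8601825 counts with 1-nitropyrene and 10773733 and 6908055 counts in control. All 10 epithelial markers checked, among them Cdh1, Epcam, Krt8 and Krt18, had 0 counts in all 4 libraries, and so did 6 of 11 alveolar type 2 markers, among them Sftpb and Nkx2-1. CPM, the usual unit of counts relative to the library total, were scaled here by TMM normalisation factors. The alveolar type 2 list summed to 19.1 and 17.6 CPM with 1-nitropyrene and to 19 and 17.2 CPM in control. Leukocyte and endothelial markers summed to at most 0.287 CPM in any library. The 11 fibroblast and mesenchymal markers summed to 814 and 803 CPM with 1-nitropyrene and to 536 and 522 CPM in control, nearly all of it from Vim and Fn1, which rose (log2 fold changes 0.23 and 1.15, adjusted p = 8.65e-09 and 2.35e-164, edgeR). The rest of that list did not follow them. Acta2 had 12 and 0 counts with 1-nitropyrene and 36 and 7 in control and was called lower (adjusted p = 0.0061, edgeR), Pdgfra did not pass the test (log2 fold change -1.18, adjusted p = 0.118, edgeR), and Col1a1, Col1a2, Col3a1, Tagln and Postn lay below the filter with fewer counts with 1-nitropyrene. Over the whole table, 12111 of 21942 protein-coding genes had 0 counts in all libraries. How well the reads matched the mouse reference, and whether they fit the labelled line, was not tested, and this limit applies to every count and fold change given here. Whether these features have a part in the values below was not tested.

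Sequences at which the members could be compared were taken from the RefSeq promoters of build GRCm38.p6, which reach from 250 bases before to 50 bases after a transcript start. They matched 40 of the 47 members by symbol. The upstream parts of the regulator and of the 2 subunit genes with the steepest rises are shown because the results turn on these genes. Capitals mark the letters CCAAT or their complement ATTGG (the CCAAT box, bound by the factor NF-Y). For Nfe2l1 the most upstream of 5 RefSeq starts is given.
Nfe2l1, chr11:96829969-96830218, minus strand: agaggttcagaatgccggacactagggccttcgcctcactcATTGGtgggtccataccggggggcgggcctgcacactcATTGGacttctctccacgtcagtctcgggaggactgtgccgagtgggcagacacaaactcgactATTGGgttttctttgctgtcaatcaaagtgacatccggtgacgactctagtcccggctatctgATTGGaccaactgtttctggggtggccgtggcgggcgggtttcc
Psmc4, chr7:28050093-28050342, minus strand: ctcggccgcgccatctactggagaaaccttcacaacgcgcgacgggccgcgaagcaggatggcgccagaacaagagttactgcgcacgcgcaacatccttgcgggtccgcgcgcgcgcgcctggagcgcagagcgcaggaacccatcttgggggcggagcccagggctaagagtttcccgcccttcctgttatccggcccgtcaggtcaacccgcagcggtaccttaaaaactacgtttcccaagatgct
Psmd8, chr7:29180674-29180923, minus strand: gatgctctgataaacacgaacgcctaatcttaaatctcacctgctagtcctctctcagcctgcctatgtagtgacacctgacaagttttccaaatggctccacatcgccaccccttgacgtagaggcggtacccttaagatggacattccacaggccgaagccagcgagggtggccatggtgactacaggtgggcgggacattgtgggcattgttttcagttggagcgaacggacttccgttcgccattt

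The Nfe2l1 stretch held 4 CCAAT boxes, while those of Psmc4 and Psmd8 held 0. This count depends on the start chosen. The stretches before the other Nfe2l1 starts, some of which overlap, held 0, 5, 4 and 2. Psmc4 and Psmd8 had 1 start each. These 3 genes were picked for their changes. Over all tested members with a promoter, 2 that rose and 6 that fell held the box. Another 3 that rose and 3 that fell lacked it. The second search used the letters TGACNNNGC on either strand, the general form of the antioxidant response element that NRF1 and its relatives bind. It had 0 matches in these 3 stretches, and 8 of the 40 members held it, as shown here with the match in capitals and 10 bases on each side (fewer where the promoter window ended).
Adrm1, chr2:180171416-180171444, plus strand: cgctcccctaTGACACAGCaacaataggg
Psmb5, chr14:54618024-54618052, minus strand: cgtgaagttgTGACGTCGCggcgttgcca
Psmb6, chr11:70525338-70525366, plus strand: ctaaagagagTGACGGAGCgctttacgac
Psmc6, chr14:45329587-45329615, minus strand: gagcaatgccTGACTTAGCtactggctgg
Psmd12, chr11:107479278-107479299, minus strand: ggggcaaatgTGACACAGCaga
Psmd9, chr5:123228149-123228177, plus strand: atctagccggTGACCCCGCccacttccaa
Psme4, chr11:30771758-30771786, minus strand: gctcttctggTGACGCTGCagccgcagcg
Vcp, chr4:43000603-43000631, minus strand: tgcggccaatTGACGTGGCgttactaggc

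Each is written on the strand that reads as the motif. In Vcp the element directly follows a CCAAT box and shares no base with it. The element was found in promoters of 20% of the matched members and of 14% of all 27025 genes with a promoter. The CCAAT box was found in 16 of the 40 members (40%) and in 41.1% of all genes. A match describes letters in this window and not a bound site.

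**Figure D1:**
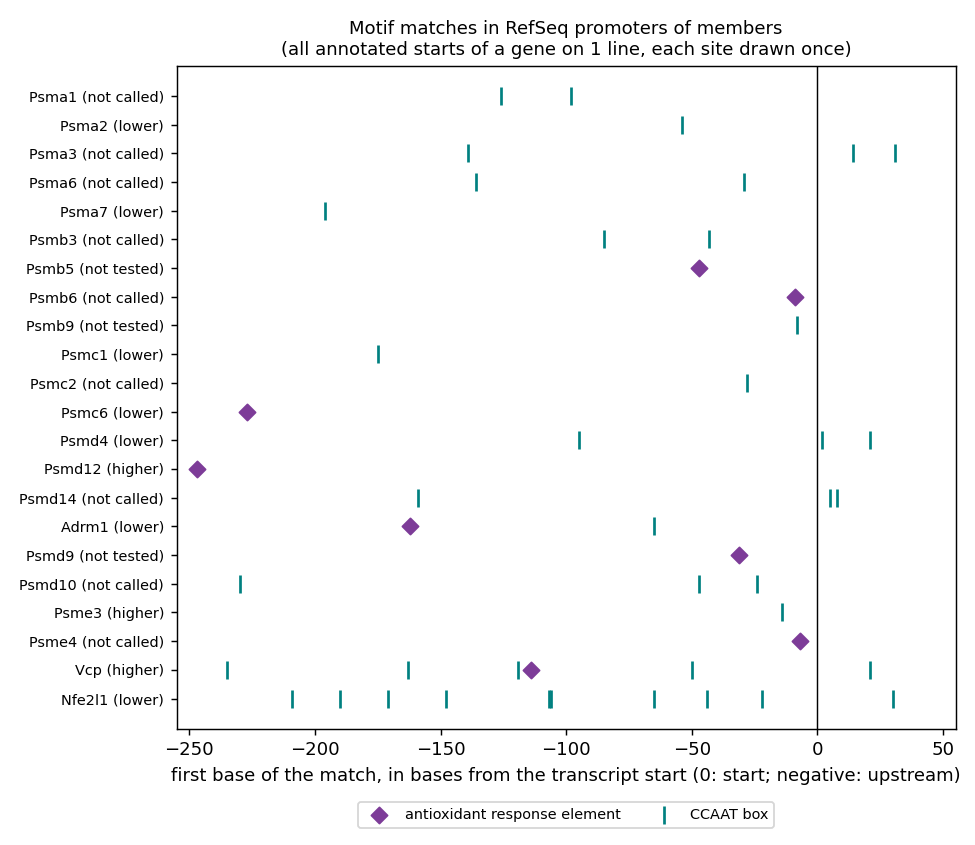
Matches of the antioxidant response element (TGACNNNGC, diamonds) and the CCAAT box (ticks), on either strand, in RefSeq promoters of the members that hold at least 1. The horizontal axis gives bases from the transcript start, negative upstream, and the label gives the call with 1-nitropyrene. The 8 elements lie in members called higher, called lower, not called and not tested.

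The main comparison asked which of these genes changed with 1-nitropyrene. Nfe2l1 fell to 0.608 of its control level, by far the clearest change among them. In such bulk RNA, fewer cells of a kind and less RNA per cell cannot be told apart. The subunit genes moved in both directions. Psmc4 and Psmd8 of the cap rose about 1.6-fold, Psmd12 rose 1.13-fold, and Psma2 of the core fell to 0.559 of control. Psmd4 and Adrm1, which encode ubiquitin receptors of the cap, fell to 0.748 and 0.778 of control, while Psmd2, which encodes another, did not pass the test (0.918), and Psmd1 and Psmd11 fell by smaller amounts. In all, 5 members rose, 10 fell and 22 did not pass the test.

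Of the 47 genes, 37 passed the filter on low counts, 3 lay below it and 7 had 0 counts in all 4 libraries. A gene was called at a Benjamini-Hochberg adjusted p under 0.05 in edgeR's quasi-likelihood test, adjusted over all 7738 genes tested. Of all tested genes 24.5% were called, 13.2% higher and 11.2% lower, against 40.5% of the 37 members (15 genes). Where the mean over all libraries reached 10 CPM, 15 of 36 members (41.7%) and 34.3% of all such genes were called. The median log2 fold change of the tested members was -0.12, beside -0.0035 over all tested genes. A negative value was seen in 26 of 37 members (70.3%) and in 50.4% of all genes. In 28 of the 37 members (75.7%) the libraries with 1-nitropyrene did not overlap the controls, as in 59.2% of all genes. Without scaling factors the members called were 3 higher and 13 lower. DESeq2 called 4 higher and 6 lower, with 15% of its 4808 genes called. Without control replicate 1, or without 1-nitropyrene replicate 2, 3 members were called higher.

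**Figure D2:**
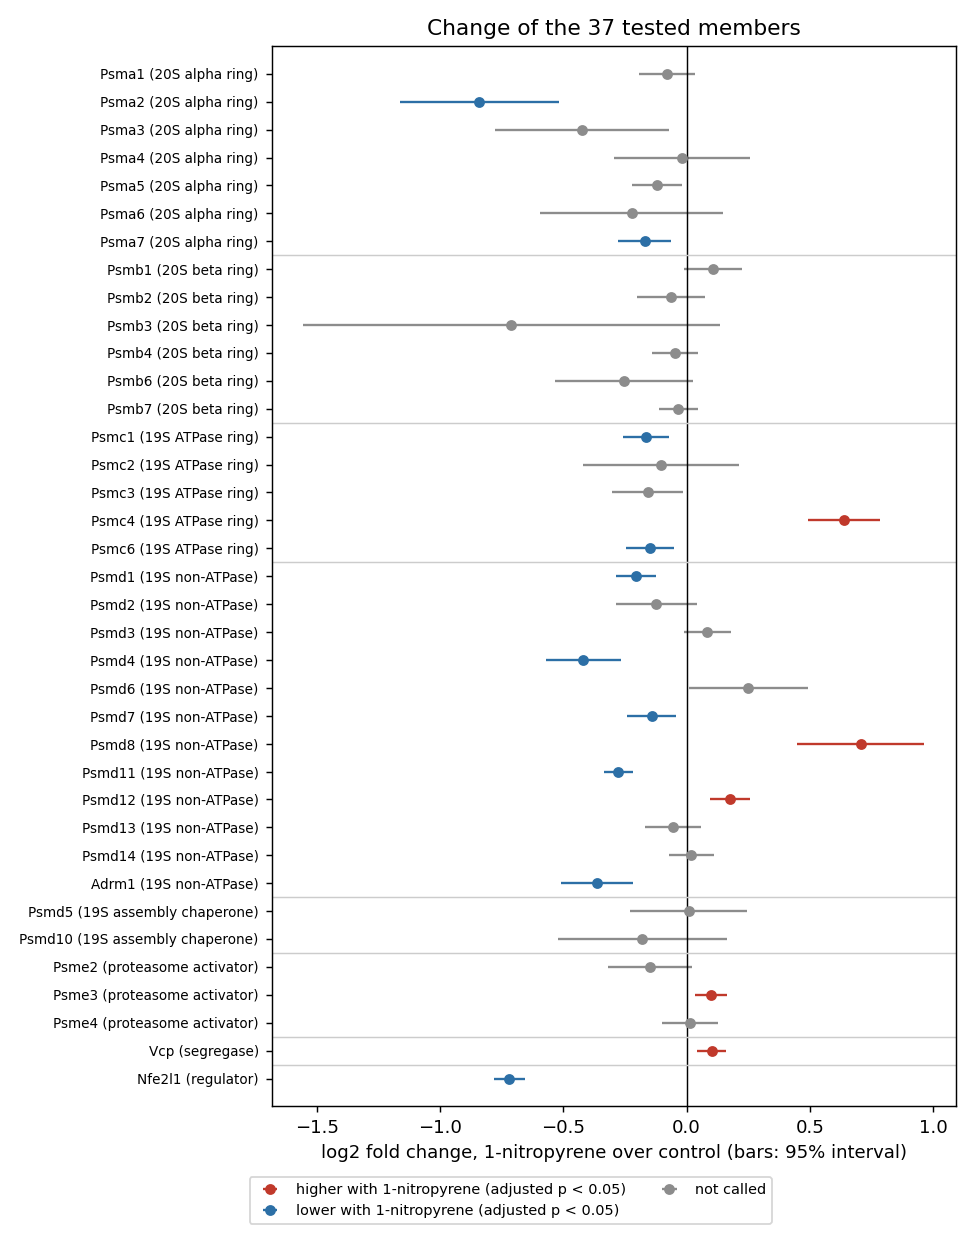
Log2 fold change, 1-nitropyrene over control, of the 37 tested members, grouped by role, with the 95% interval as bars. Red marks the 5 genes called higher, blue the 10 called lower and grey the 22 not called. Psmd8 and Psmc4 lie farthest to the right, and Psma2 and Nfe2l1 farthest to the left among the called genes.

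The regulator is described first. Nfe2l1 (ENSMUSG00000038615, GRCm38 chromosome 11, 96817414 to 96829968, minus strand) had 426 and 416 CPM in the libraries with 1-nitropyrene, against 677 and 709 CPM in control. Both libraries with 1-nitropyrene lay far below both controls, and the replicates of each group lay close together. Its mean was 421 ± 7.23 CPM with 1-nitropyrene and 693 ± 22.4 CPM in control (SD, n = 2 each). On the log2 scale it fell by 0.72 (SE 0.03, adjusted p = 4.13e-101, edgeR), with a 95% interval of 0.581 to 0.636 for the ratio. By adjusted p it had rank 3 among the genes that fell, while 347 of all tested genes (4.48%, itself included) had a fold change as low or lower. The standard error rests on a spread shared by all genes. Over 13 alternative settings the log2 fold change lay between -0.75 and -0.69, and the highest adjusted p, with no filter on low counts, was 7.18e-09. The gene had no exon overlap with another gene, and no other transcript matched its coding sequence at 95% identity over 100 bases. Its counts over the 4 libraries came to 19547.

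Vcp, the ATPase that pulls ubiquitinated proteins out of membranes and complexes, NRF1 among them, moved slightly the other way. It had 813 and 801 CPM with 1-nitropyrene and 751 and 753 CPM in control. The groups did not overlap, and the ratio was 1.07 (95% interval 1.03 to 1.12, adjusted p = 0.004, edgeR). This call ended without scaling (0.0630), without control replicate 1 (0.0507) and when 1-nitropyrene replicate 2 was left out (0.0519), these being adjusted p-values. Vcp shares 352 bp of exon with genes on the opposite strand. Its neighbour there, 1700022I11Rik, had 2256 and 2130 counts with 1-nitropyrene and 2380 and 1589 counts in control, and was itself called higher (log2 fold change 0.19, SE 0.04). The pseudogene Vcp-rs, which matches the coding sequence at up to 99% identity, had 1659 counts in all, beside 27296 for Vcp. The kit marks strand, but the sources used here do not give the strand setting of the counting.

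Of the 7 alpha ring genes all were tested, 2 fell and 0 rose, beside 11.2% of all tested genes called lower and 13.2% higher. All 7 log2 fold changes were below 0, as were 50.4% of those of all genes. That of Psma4 was -0.02 (SE 0.14), and it was 0.17 without control replicate 2. Psma2 had 10.8 and 10.1 CPM with 1-nitropyrene and 17.3 and 20.9 CPM in control. Its libraries with 1-nitropyrene lay below both controls, and the gene fell by 0.84 on the log2 scale (SE 0.16, adjusted p = 5.02e-06, edgeR). The counts behind it were low, 94 and 86 with 1-nitropyrene and 188 and 146 in control. Psma7 had 126 and 125 CPM with 1-nitropyrene and 146 and 134 CPM in control (ratio 0.889, adjusted p = 0.0113, edgeR). Its call ended without control replicate 1 (log2 fold change -0.10, adjusted p = 0.426), the higher of the 2 controls, in DESeq2 (0.221) and with no filter on low counts (0.0858). Psma5, the alpha gene with the highest level per length, had 148 and 142 CPM with 1-nitropyrene and 159 and 156 CPM in control, without overlap, and did not pass the test (ratio 0.92, adjusted p = 0.0766, edgeR). Psma3 did not pass either (ratio 0.745, interval 0.583 to 0.952), and both genes gained a call in some settings. The counts of Psma3 are uncertain: its copies Gm4742 and Gm13835 had 220 and 95 counts in all, beside 414 for Psma3. Their longest matches were 769 and 662 bases, with highest identities of 96.5% and 100%. Psma1, Psma4 and Psma6 did not pass the test, at ratios of 0.947, 0.986 and 0.857, and in Psma4 and Psma6 the groups overlapped.

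The 6 tested beta ring genes gave 0 calls in edgeR in either direction, beside 24.5% of all tested genes called. Psmb7, which carries the trypsin-like site, had 307 and 290 CPM with 1-nitropyrene and 302 and 311 CPM in control, so that the groups overlapped. Its 95% interval of the ratio was 0.925 to 1.03. Psmb4, the beta gene with the highest level per length, had 183 and 186 CPM with 1-nitropyrene and 185 and 199 CPM in control, likewise overlapping (interval 0.907 to 1.03). Psmb7 shares 405 bp of exon with genes on the opposite strand. Nek6, which matches the coding sequence of Psmb7 over up to 155 bases, had 5527 counts in all, beside 10592 for Psmb7. Nek6 was itself called lower (log2 fold change -0.20, SE 0.05). Whether its reads have a part in the values of Psmb7 was not tested. Psmb2 had a ratio of 0.958. Psmb6, which carries the caspase-like site, had 17.1 and 16.6 CPM with 1-nitropyrene and 20.7 and 19.2 CPM in control (ratio 0.839, interval 0.691 to 1.02, adjusted p = 0.197, edgeR). Psmb1 was the only tested gene of both rings with a mean above control, at 112 and 109 CPM with 1-nitropyrene and 106 and 99.5 CPM in control (ratio 1.08, adjusted p = 0.201, edgeR). Psmb3 had 14 and 13 counts with 1-nitropyrene and 28 and 18 in control, too few for a narrow interval (0.34 to 1.1). Psmb5, which carries the chymotrypsin-like site and belongs to every standard proteasome, had 0 counts in all libraries, while its pseudogene Gm3375 had 12. Given the many genes at 0, this says only that no read was counted for Psmb5 and sets no limit on its expression.

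The beta subunits of the immunoproteasome, which replace the catalytic ones in cells exposed to interferon, were scarcely detected. Psmb8 and Psmb9 had 0 counts throughout. Psmb10 had 9 and 7 counts with 1-nitropyrene and 22 and 7 in control, below the filter. The core assembly chaperones Psmg1, Psmg2 and Psmg3 likewise had 0 counts in every library.

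The ATPase ring of the cap held a change in each direction. Of its 5 tested genes 1 rose and 2 fell, beside 24.5% of all tested genes called in either direction. Psmc4 had 91.0 and 80.4 CPM with 1-nitropyrene and 57.9 and 51.2 CPM in control. Both libraries with 1-nitropyrene stood above both controls, with a mean of 85.7 ± 7.49 CPM against 54.5 ± 4.73 CPM (SD, n = 2 each) and a ratio of 1.56 (interval 1.41 to 1.72, adjusted p = 4.94e-16, edgeR). Another 2 ATPase genes went slightly the other way. Psmc1 had 177 and 179 CPM with 1-nitropyrene and 193 and 208 CPM in control (ratio 0.893, adjusted p = 0.00412, edgeR). Psmc6 had 154 and 159 CPM with 1-nitropyrene and 172 and 175 CPM in control (ratio 0.902, adjusted p = 0.017, edgeR). In neither did the groups overlap. The call of Psmc1 ended without control replicate 2 (adjusted p = 0.172) and in DESeq2 (0.118). That of Psmc6 ended in DESeq2 (0.2), with no filter (0.066) and without any 1 of 3 libraries, control replicate 1 (0.0851), control replicate 2 (0.114) or 1-nitropyrene replicate 2 (0.119). Psmc2 and Psmc3 did not pass the test, at ratios of 0.931 and 0.896. Psmc5 had only 7 and 6 counts with 1-nitropyrene and 10 and 6 in control.

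The 12 non-ATPase subunits of the cap were all tested, and 2 rose and 5 fell, beside 24.5% of all tested genes called. Psmd8, a subunit of the lid, had 26.9 and 28.3 CPM with 1-nitropyrene and 17.3 and 16.3 CPM in control. This was the steepest rise among the 37 tested genes, at 0.71 on the log2 scale (SE 0.13, adjusted p = 1.4e-06, edgeR), and the groups stood well apart. Psmd12, another lid subunit, had 299 and 285 CPM with 1-nitropyrene and 254 and 264 CPM in control, also without overlap (ratio 1.13, interval 1.07 to 1.20, adjusted p = 0.000198, edgeR). Its adjusted p in DESeq2 was 0.0351, and without control replicate 1 its log2 fold change was 0.15. Psmd6 had 24.6 and 29.3 CPM with 1-nitropyrene and 23.1 and 21.9 CPM in control and did not pass the test (ratio 1.19, adjusted p = 0.128, edgeR).

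Among the subunits that fell, Psmd4 encodes a ubiquitin receptor of the cap. It had 52.4 and 54.5 CPM with 1-nitropyrene and 72.7 and 69.8 CPM in control (log2 fold change -0.42, SE 0.08, adjusted p = 1.56e-06, edgeR). Adrm1, which encodes the receptor RPN13, had 61.1 and 57.8 CPM with 1-nitropyrene and 76.9 and 75.8 CPM in control (-0.36, SE 0.07, adjusted p = 1.89e-05, edgeR). Both genes had replicates close together and groups that did not overlap. Psmd1, the large scaffold that docks ubiquitin receptors, had 240 and 247 CPM with 1-nitropyrene and 283 and 277 CPM in control (ratio 0.867, adjusted p = 1.54e-05, edgeR). Psmd11, a lid subunit, had 637 and 603 CPM with 1-nitropyrene and 748 and 754 CPM in control (ratio 0.826, interval 0.792 to 0.861, adjusted p = 1.36e-17, edgeR). The fall of Psmd11 thus exceeded the spread of its replicates. Psmd7, the partner of the deubiquitinase Psmd14, had 146 and 161 CPM with 1-nitropyrene and 176 and 161 CPM in control, with the inner libraries of the groups nearly touching (ratio 0.906, adjusted p = 0.0258, edgeR). Its call ended without control replicate 1 (log2 fold change -0.07, adjusted p = 0.567) and when 1-nitropyrene replicate 2 was left out (-0.08, 0.386), and likewise in DESeq2 (0.319), in limma-voom (0.0556) and with no filter (0.189).

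Psmd14, the deubiquitinase that removes ubiquitin chains at the cap, had 200 and 214 CPM with 1-nitropyrene and 199 and 212 CPM in control. Its groups overlapped, with a ratio between 0.952 and 1.08 at 95%. Psmd2, Psmd3 and Psmd13 did not pass the test either, at ratios of 0.918, 1.06 and 0.963. The counts of Psmd2 are uncertain: its pseudogene Gm5422 had 4055 counts in all, more than the 1882 of Psmd2 itself. The longest match of Gm5422 was 2726 bases and its highest identity 96.4%.

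**Figure D3:**
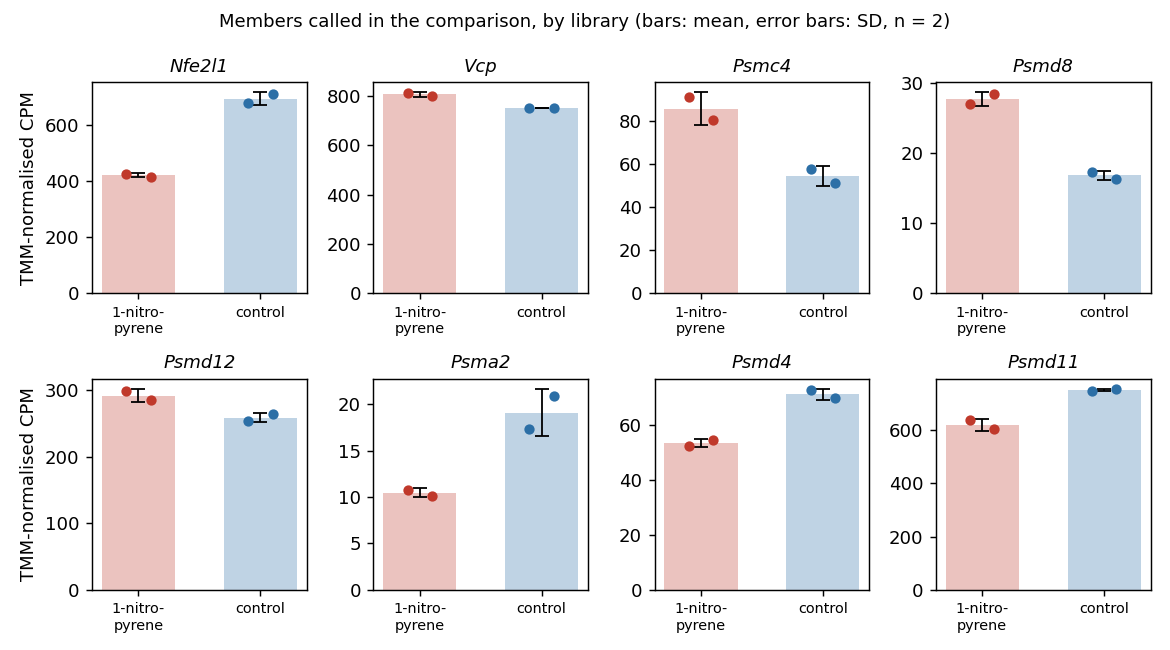
TMM-normalised CPM of 8 called members in each library (points), with the mean as bars and the SD as error bars (n = 2 per group). 1-nitropyrene is left and control right in each panel, and each vertical axis starts at 0. Nfe2l1, Psma2, Psmd4 and Psmd11 are lower with 1-nitropyrene, and Vcp, Psmc4, Psmd8 and Psmd12 are higher.

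The chaperones that assemble the base of the cap gave 0 calls. Psmd5 had 25.4 and 26.3 CPM with 1-nitropyrene and 25.7 and 25.8 CPM in control (interval of the ratio 0.854 to 1.18). Psmd10 (gankyrin) had a ratio of 0.883, with overlapping groups. Psmd9 had 2 and 2 counts with 1-nitropyrene and 0 in both controls, below the filter and under the floor of 3 counts per library.

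Of the activators, which cap the core in place of the 19S particle, 3 of 4 were tested. Psme3, the nuclear activator PA28 gamma, had 554 and 535 CPM with 1-nitropyrene and 513 and 504 CPM in control (ratio 1.07, adjusted p = 0.0174, edgeR). The groups did not overlap, but the call ended in 6 of 13 other settings, among them DESeq2 (adjusted p = 0.143), no scaling (0.133), and without control replicate 1 (0.0604), control replicate 2 (0.157) or 1-nitropyrene replicate 2 (0.211). Psme4, the activator PA200, had 119 and 116 CPM with 1-nitropyrene and 118 and 116 CPM in control (interval 0.933 to 1.09). Psme2, an interferon-inducible subunit, did not pass the test (ratio 0.902, adjusted p = 0.223, edgeR), while its partner Psme1 had 0 counts in all libraries.

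Summed over role groups, the differences were small and did not share a direction. The 14 standard core genes summed to 1128 and 1113 CPM with 1-nitropyrene and to 1178 and 1187 CPM in control. The 18 cap subunits summed to 2553 and 2533 CPM with 1-nitropyrene and to 2722 and 2730 CPM in control. Both of these sums lay lower with 1-nitropyrene, but much of the difference in the cap was that of Psmd11, which averaged 620 CPM with 1-nitropyrene and 751 CPM in control. Within the core, the alpha ring summed to 433 and 433 CPM with 1-nitropyrene and to 486 and 476 CPM in control, while the beta ring overlapped, at 695 and 680 CPM with 1-nitropyrene and 692 and 711 CPM in control. The activators summed higher, to 720 and 698 CPM with 1-nitropyrene and to 681 and 673 CPM in control. The sums were not tested.

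**Figure D4:**
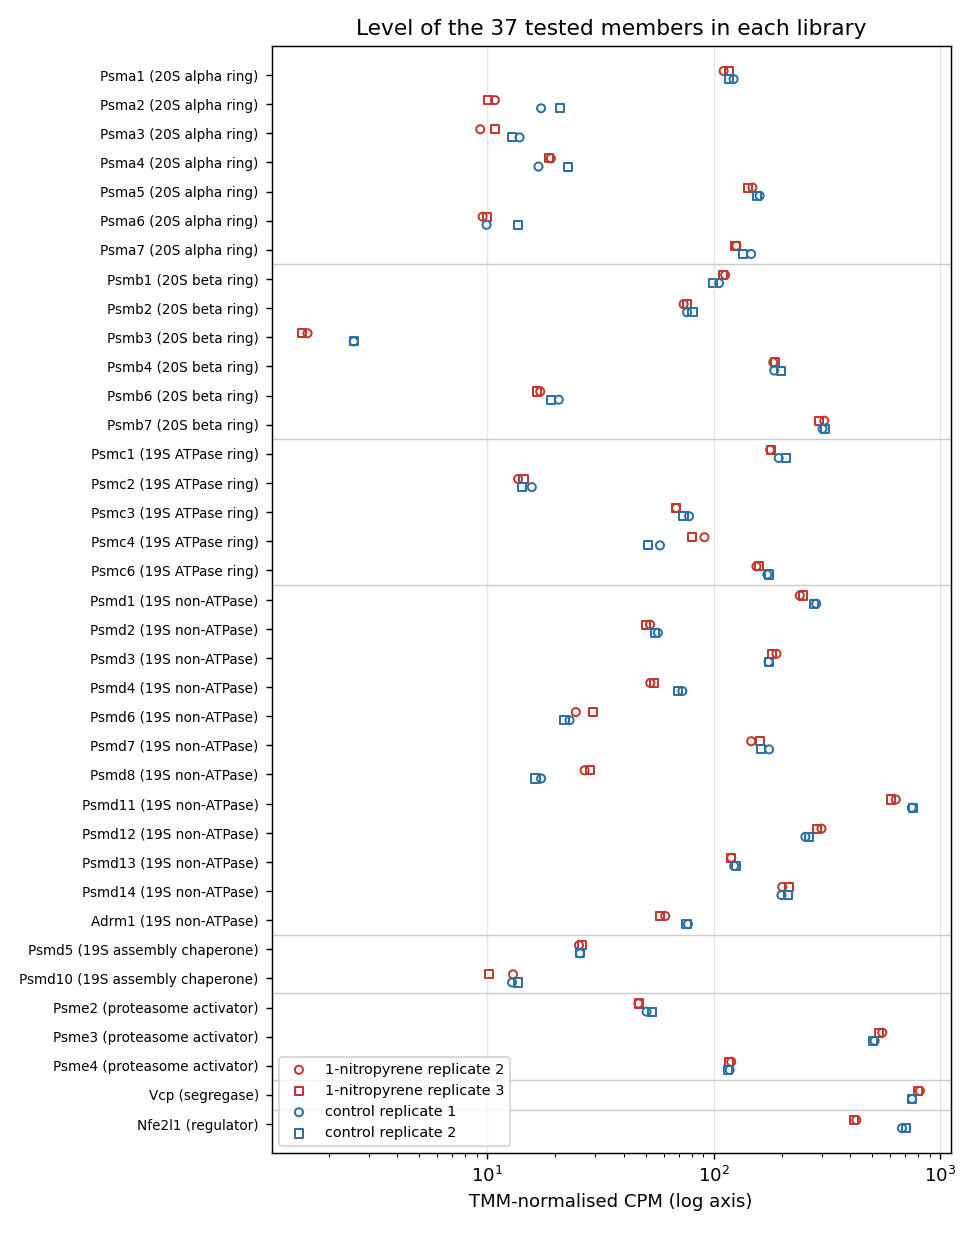
TMM-normalised CPM (log axis) of the 37 tested members in each library, grouped by role, with 1-nitropyrene in red above control in blue. Levels range from 1.53 CPM (Psmb3 with 1-nitropyrene) to 813 CPM (Vcp with 1-nitropyrene), and replicates of a group mostly lie closer to each other than genes do.

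Levels between genes were compared per length, as mean CPM per kilobase of annotated exon over both groups. Psme3 (179), Vcp (161), Psma5 (114), Psmd11 (107), Psmd12 (104) and Nfe2l1 (102) were highest, the median of the 37 tested genes was 32.4 and Psmb3 was lowest (0.901). The core carries equal numbers of each alpha subunit, but the alpha genes lay between 3.01 (Psma3) and 114 (Psma5) on this scale. Since genes such as Psmb5 and Psmg1, used by all cells, had 0 counts, these levels describe the deposited table and cannot be read as transcript abundance.

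Exons of 8 of the 37 tested members overlapped a gene on the other strand, Vcp and Psmd1 (252 bp) among those called. Psmd1 also shares 301 bp of exon with genes on its own strand. Gm21972, which matches its coding sequence over up to 292 bases, had 0 counts. A near-identical copy or overlapping transcript (at least 95% identity over 100 bases of coding sequence) existed for 12 tested members, 5 of them called. For Psmd11 the copies Gm14048 and A730017L22Rik had 1143 and 1351 counts, against 24066 for Psmd11, and neither passed the test (adjusted p = 0.479 and 0.235, edgeR). For Adrm1 the copy Gm9774, with a longest match of 1221 bases and a highest identity of 100%, had 232 counts against 2388. For 10 of the 15 called genes, among them Nfe2l1, Psma2, Psmc4, Psmd4, Psmd8 and Psmd12, neither overlap nor copy was found.

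**Figure D5:**
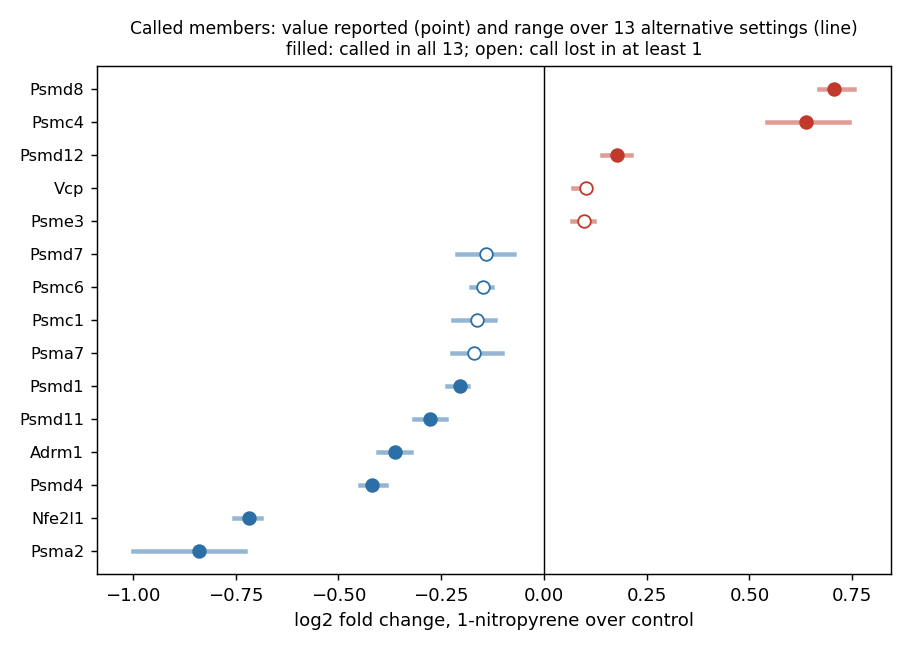
Log2 fold change, 1-nitropyrene over control, of the 15 called members: the value reported (point) and its range over 13 alternative settings (line). Filled points mark the 9 genes called in all 13 settings, and open points the 6 that lost the call in at least 1. No line crosses 0.

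The same members were set beside their motifs. Of the 31 tested members with a RefSeq promoter, 6 held the antioxidant response element, and 2 of these rose (Psmd12 and Vcp) and 2 fell (Psmc6 and Adrm1). Their median log2 fold change was -0.07, beside -0.12 for the 25 without it, of which 3 rose and 7 fell. Of the 15 with a CCAAT box 2 rose and 6 fell (median -0.18), and of the 16 without it 3 rose and 3 fell (median -0.05). The differences were not tested.

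Other genes of the pathway were counted from a list of 60 names, 56 of which had a row and 43 of which were tested. Of these 7 rose and 5 fell, 12 of 43, beside 24.5% of all genes called. Proteasome-bound deubiquitinases, which trim ubiquitin chains from docked substrates, went both ways. Uchl5 rose, with 77.1 and 78.3 CPM with 1-nitropyrene and 65.4 and 66.1 CPM in control (ratio 1.18, adjusted p = 0.00585, edgeR), and lost its call without control replicate 1 (0.102) and in DESeq2 (0.158). Usp14 fell, with 121 and 117 CPM with 1-nitropyrene and 130 and 147 CPM in control (ratio 0.864, adjusted p = 0.00134, edgeR), though 2169 bp of its exons lie opposite another gene and the call ended without control replicate 2 (0.188) and in DESeq2 (0.0939). Uchl5 is held on the cap by the product of Adrm1, which fell.

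Shuttle receptors carry ubiquitinated proteins to the cap. Ubqln2 rose to 116 and 117 CPM with 1-nitropyrene, against 97.7 and 91.3 CPM in control, and Ubqln4 to 169 and 175 CPM, against 150 and 144 CPM (adjusted p = 2.71e-05 and 0.000188, edgeR). Rad23b fell slightly (ratio 0.917, adjusted p = 0.00345, edgeR), a call that ended without control replicate 2 (0.0529), without 1-nitropyrene replicate 2 (0.0773) and in DESeq2 (0.0723). Ubqln1 did not pass the test (ratio 0.677, interval 0.414 to 1.11).

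Of 16 tested Vcp cofactors 1 rose and 3 fell, beside 24.5% of all tested genes called in either direction. Nsfl1c, which encodes the adaptor p47, had 72.1 and 73.2 CPM with 1-nitropyrene and 102 and 92.6 CPM in control (log2 fold change -0.43, SE 0.07, adjusted p = 6.42e-09, edgeR), the largest change in the list that passed. Plaa, an adaptor that binds ubiquitin, rose 1.16-fold (adjusted p = 0.00197, edgeR), a call that ended without control replicate 1 (0.076) and in DESeq2 (0.103). Nploc4, which with Ufd1 recruits Vcp to membrane proteins, and Faf1 fell by small amounts (ratios 0.891 and 0.933, adjusted p = 0.017 and 0.048, edgeR). Both calls ended without any 1 of 3 libraries, with adjusted p-values between 0.073 and 0.365. They also ended in DESeq2 (0.227 and 0.279) and with no filter (0.0816 and 0.148), and that of Faf1 in limma-voom (0.0583). Ufd1 itself did not pass (ratio 0.947).

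Of the genes that process, degrade or partner NRF1, 3 of 15 tested rose and 0 fell. Over all tested genes 13.2% were called higher and 11.2% lower. Hcfc1, which with the glycosyltransferase Ogt stabilises NRF1, rose to 311 and 325 CPM with 1-nitropyrene, against 267 and 253 CPM in control (ratio 1.22, adjusted p = 4.4e-11, edgeR). Ogt itself was at 1.1 times control (adjusted p = 0.203, edgeR). Stt3a and Stt3b, catalytic subunits of the enzyme that attaches sugars in the endoplasmic reticulum, rose 1.19-fold and 1.1-fold (adjusted p = 9.41e-08 and 0.00430, edgeR), the second losing its call without control replicate 1 (0.229) and in DESeq2 (0.116). The protease gene Ddi2 had 17.8 and 17.7 CPM with 1-nitropyrene and 21 and 21.6 CPM in control and did not pass the test (ratio 0.838, interval 0.693 to 1.01). Ddi2 shares 1749 bp of exon with genes on its own strand. Ngly1 had 2.99 and 2.23 CPM with 1-nitropyrene and 2.48 and 1.72 CPM in control, with a wide interval (0.698 to 2.05). Fbxw7, whose ligase is known to mark NRF1 for degradation and which the study's title names, did not pass either, at a ratio of 0.862 (interval 0.733 to 1.02). The related factor Nfe2l2 (NRF2) was at 13 and 10.9 CPM with 1-nitropyrene and 12.8 and 12.9 CPM in control, and Nfe2l3 had 0 counts in all libraries.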

How the data were processed

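The deposited table holds raw read counts per Ensembl gene, 1 column per library. Per the submitters' processing notes, the builds GRCm38 and mm10 and the tools featureCounts 1.6.3, HISAT2 2.1.0 and DESeq2 were used, with no roles stated. The sources used here give no annotation, strand setting or treatment of multiply mapped reads, so reads of pseudogenes and overlapping genes may be misplaced. Symbols, coordinates and exon lengths came from GENCODE M21 on GRCm38 (105 identifiers had no entry), and promoters from RefSeq GRCm38.p6.

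Counts were fitted with edgeR 4.0.16 (limma 3.58.1, R 4.3.3) on all 4 libraries: filterByExpr, TMM factors, treatment as the only term, quasi-likelihood F test (newer method), two-sided. The dispersion was 0.000546, and 1 spread served every gene because edgeR estimated an infinite prior. Each standard error is the absolute log2 fold change over the square root of F, with intervals at 95%. Replicates differed by more than sampling noise (chi-square per degree of freedom 2.05 with 1-nitropyrene and 1.62 in control), and each counted as 1 sample. The floor of 3 counts covers counting error only, while the intervals rest on the 1 spread shared by all genes. Copies were searched with BLAST+ 2.17.0.

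Named are all 47 members, with values in every library for Nfe2l1, Vcp, those called and, in each role, the highest by level (some others were added after their values were seen), and the called genes of the list of partners. Members, lists and alternatives were chosen with earlier results of these data known. Partner names without a row are older names of listed genes, and Paaf1, not analysed here; 1 tested partner is not reported here by name. The alternatives were other scaling, filters, tests (DESeq2 1.42.0, limma-voom, robust and older quasi-likelihood fits), a stricter threshold and each library left out.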

Additional observations from a re-analysis of the deposited data

How the results depend on the processing

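No paired analysis was possible because the groups share only 1 replicate number. No call of a member or partner changed sign under any alternative. Of the 15 called members 9 kept the call in all 13 settings at the same threshold, and 6 (Psma7, Psmc1, Psmc6, Psmd7, Psme3 and Vcp) lost it in at least 1. Of the 22 not called, 3 (Psma3, Psma5 and Psmc3) gained a call in some setting. Of the 12 called partners 5 kept the call in all settings. Over all genes 1024 were called higher and 870 lower. DESeq2 called 465 and 254, no filter on low counts gave 532 lower, and an adjusted p under 0.01 gave 568 lower. Members called higher numbered 3 without scaling, and members called lower 6 in DESeq2. Among partners DESeq2 called 4 higher and 1 lower, no filter gave 3 lower and an adjusted p under 0.01 gave 3 lower. Leaving out 1 library puts a group at 1 sample, whose spread is then taken from the other group. Calls then ranged from 690 to 861 higher and from 511 to 647 lower over all genes, the lowest without control replicate 1, from 3 to 5 higher and 7 to 10 lower among members, and from 4 to 8 higher and 1 to 5 lower among partners. Partners called lower numbered 3 without control replicate 1, 1 without control replicate 2 and 2 without 1-nitropyrene replicate 2, and partners called higher 4 without control replicate 1. Depth limits genes such as Psmb3, Ngly1 and Pomp, for which 95% intervals of the ratio span more than a 1.5-fold range. With 2 libraries per group, no gene's own spread was well measured.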
